A study of Mus musculus with 35 samples.

Results

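The genes described here are 8 genes of MHC class II antigen presentation, of 22830 gene symbols in each of the deposited count tables: H2-Aa, H2-Ab1 and H2-Eb1, H2-DMa and H2-DMb1, Cd74, Ciita and Cd207. They were taken by symbol. RNA was sequenced from full-thickness wounds on the backs of mice in 35 libraries. By the study's methods the tissue was a punch biopsy of the centre of the wound or scar, so a wound's values below are those of its centre. WT animals carried floxed Col5a1 alleles without Cre, and Col5a1CKO animals carried Col1a2CreERT with Col5a1 fl/fl, so that tamoxifen, given to both genotypes, removed Col5a1 from cells in which the Col1a2 enhancer drives Cre, among them skin fibroblasts. Animals of both sexes on a C57BL/6 background were wounded as young adults. Wounds were taken at day 14 from 7 WT, 7 Col5a1CKO and 3 Col5a1CKO animals with cultured WT dermal fibroblasts injected into the wound, and at day 19 from 3 WT and 3 Col5a1CKO animals. In a further experiment, with its own count table, WT mice received vehicle and Col5a1CKO mice received vehicle or cilengitide, an inhibitor of alpha v integrins, with 4 wounds in each group. These wounds were taken at day 14. The study's legends also name 7 WT and 7 Col5a1CKO wounds of day 14 as vehicle groups, beside the 3 with fibroblasts. Below, groups with vehicle are those of the cilengitide experiment. The sample titles place the fibroblasts at day 14, whereas the treatment field names them for the Col5a1CKO wounds of day 19, and the titles were followed.

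MHC class II molecules present peptides from endocytosed proteins to CD4 T cells. In the mouse the I-A molecule is the pair of H2-Aa and H2-Ab1, and H2-Eb1 is the beta chain of I-E, whose alpha chain gene is defective in C57BL/6 mice. The invariant chain Cd74 guides class II molecules to endosomes and blocks their groove, and H2-DMa and H2-DMb1 form the exchange factor that loads peptides. Ciita is the coactivator that switches these genes on, through factors bound to X and Y boxes in their promoters. Cd207, or langerin, is a lectin of Langerhans cells, the dendritic cells of the epidermis, and of a smaller population of dermal dendritic cells, and it is not part of the class II molecule.

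The promoters of 5 of the 8 genes were given by RefSeq on build GRCm38.p6, as windows of 250 bases before and 50 after each start. The windows of H2-Ab1, Cd74 and Ciita were not analysed here. The 150 bases just before the start are printed for the class II chains, to show the X and Y box letters that they share, for H2-DMb1, and for Cd207. Capitals mark matches on either strand to the Y box CTGATTGG, to its core CCAAT, to GCAAC, which is part of an RFX site, and to TGACG, which is part of a cAMP response site. The reverse of CCAAT lies within the Y box.
H2-Aa, chr17:34287824-34287973, minus strand: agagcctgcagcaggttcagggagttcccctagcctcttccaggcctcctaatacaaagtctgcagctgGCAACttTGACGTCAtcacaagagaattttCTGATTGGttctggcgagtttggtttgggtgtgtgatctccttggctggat
H2-Eb1, chr17:34305717-34305866, plus strand: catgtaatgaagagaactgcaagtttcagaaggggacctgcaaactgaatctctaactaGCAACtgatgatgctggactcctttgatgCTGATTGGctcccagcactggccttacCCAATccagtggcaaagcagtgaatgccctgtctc
H2-DMb1, chr17:34153041-34153190, plus strand: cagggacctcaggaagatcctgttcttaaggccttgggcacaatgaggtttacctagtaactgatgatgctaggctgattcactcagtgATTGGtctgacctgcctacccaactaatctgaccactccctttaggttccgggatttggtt
Cd207, chr6:83677858-83678007, minus strand: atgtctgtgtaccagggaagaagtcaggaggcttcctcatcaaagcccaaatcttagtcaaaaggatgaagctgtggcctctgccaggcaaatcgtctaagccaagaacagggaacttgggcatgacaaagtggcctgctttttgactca

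The Y box letters began 51 bases before the start of H2-Aa and 62 before that of H2-Eb1, with the partial RFX site at 81 and 91 bases. Among all 32851 promoter windows, 4.10% held the Y box letters, 37.4% CCAAT, 35.2% the partial RFX site and 20.8% the partial cAMP response site. H2-DMb1 held CCAAT on the minus strand 61 bases before its start. The window of Cd207 held none of these 4 motifs, and the 2 windows of H2-DMa held 1 partial RFX site and 1 CCAAT between them. These are matches of letters and not measured sites.

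On build NCBI37/mm9, which the read counts used, in GENCODE positions, H2-DMa (34272127 to 34276046), H2-DMb1 (34290017 to 34297168), H2-Ab1 (34400154 to 34406363) and H2-Eb1 (34442828 to 34453144) lie on the plus strand of chromosome 17. H2-Aa (34406276 to 34424772) lies on the minus strand there, and its end overlaps that of H2-Ab1 by 88 bases. The libraries were made with a stranded kit, but the strand setting of the counts is not given in the sources used here, so reads from the overlap cannot be assigned with certainty. Cd207 lies on chromosome 6 (83621201 to 83627851, minus strand) and Ciita on chromosome 16 (10480237 to 10527657, plus strand).

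Counts summed to 15043531 to 35700325 per wound in the table of the fibroblast and day 19 wounds, and to 51211600 to 68266760 in the cilengitide table. By the log2 level of GC-rich less that of GC-poor genes, libraries of the first table form 2 sets that lie 1.54 apart. Of the day 14 wounds without fibroblasts, WT a to d and mutant a to e belong to the lower set and WT e to g and mutant f and g to the upper one, along with all wounds with fibroblasts or of day 19. In the upper set at day 14, Y chromosome RNA was found in the 3 WT wounds, and Xist in the 2 Col5a1CKO wounds and the 3 with fibroblasts, so sex and genotype cannot be told apart there. Replicate 2 of Col5a1CKO with vehicle had neither at over 10 CPM (reads scaled to library size). The 3 other wounds of that group had Y chromosome RNA. WT with vehicle and Col5a1CKO with cilengitide each had 2 wounds with Y chromosome RNA and 2 with Xist, so sex was not balanced between these groups. The deleted gene Col5a1 had medians of 846 CPM in WT and 368 in Col5a1CKO wounds at day 14, 2575 and 874 at day 19, and 1512 and 587 with vehicle, and the genotypes overlapped in each of the 3. By the methods of the study, replicates are separate biological samples. In such bulk tissue from the wound centre, fewer cells of a type and less RNA per cell cannot be told apart.

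The order of the 8 genes per length was read in WT wounds of day 14, as median RPKM (reads scaled to gene length and library size) over 7 wounds. The I-A alpha chain H2-Aa had the highest median, with 277 (range 145 to 379). Cd74 had 169 (137 to 725), H2-Ab1 143 (65.6 to 401) and H2-Eb1 108 (71.8 to 201). Neighbours among these 4 genes overlapped over the wounds. This order differed between the library sets. H2-Aa was above Cd74 in the 4 wounds of the lower set, whereas Cd74 (291 to 725 RPKM) and H2-Ab1 (162 to 401) were above H2-Aa (145 to 368) in each of the 3 wounds of the upper set.

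The loading factor genes were lower, with 19.6 RPKM (6.71 to 23.6) for H2-DMb1 and 5.58 (2.38 to 41.6) for H2-DMa. Cd207 had 15.6 RPKM (9.06 to 24.7). Ciita was lowest, with 1.58 (0 to 3.18). The ranges of H2-Eb1 and H2-DMb1 were the only ones of neighbours in this order that did not overlap. The remaining values are CPM after TMM normalization, an adjustment of library sizes, and serve only to compare wounds for the same gene.

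In the cilengitide experiment, Cd207 was the only gene of the 8 that passed the test described below. It was 26.6, 15.6, 29.3 and 21.6 CPM in the WT wounds with vehicle, 0.410, 0.304, 0.172 and 0.285 CPM in Col5a1CKO wounds with vehicle and 10.2, 7.89, 5.60 and 6.64 CPM in Col5a1CKO wounds with cilengitide. The 3 groups did not overlap, and the cilengitide wounds lay between the others. The Col5a1CKO wounds with vehicle held 8 to 24 reads of Cd207 each. Each pair of comparisons among these 3 groups shares a group.

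**Figure D1:**
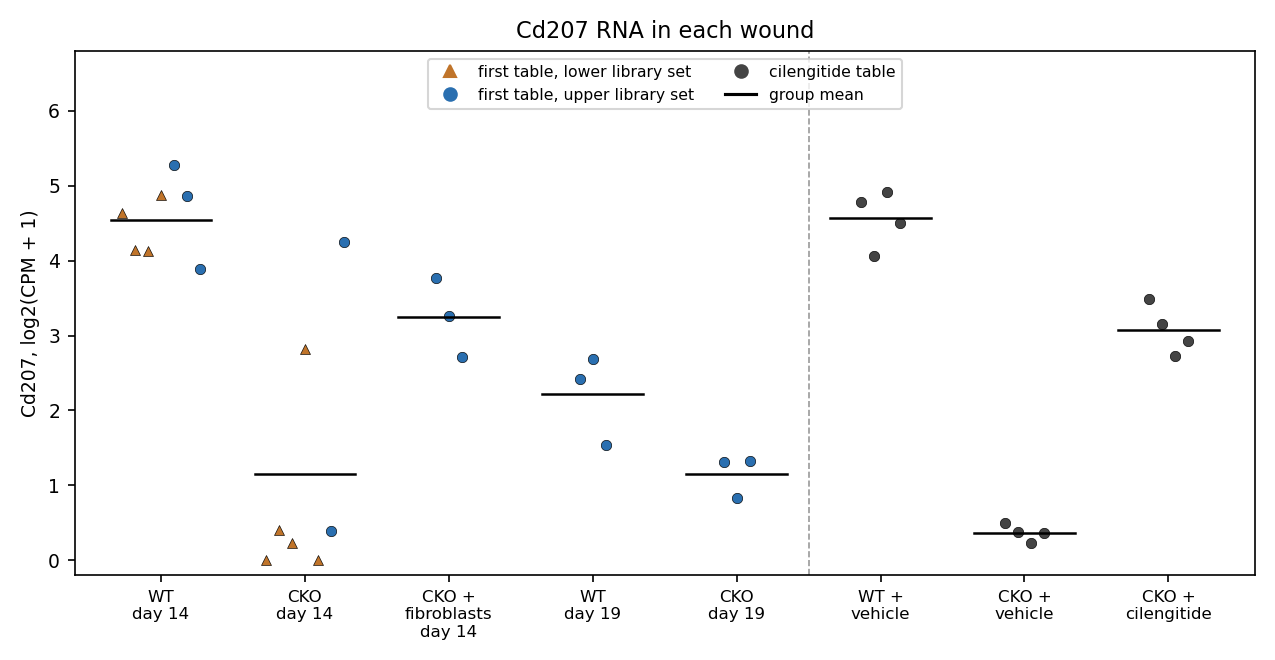
Cd207 RNA in each wound as log2(CPM + 1) (vertical axis) for the 8 groups, where CKO stands for Col5a1CKO, points are wounds and bars group means. Triangles are libraries of the lower set, circles libraries of the upper set or of the cilengitide table. The 4 CKO wounds with vehicle lie between 0.172 and 0.410 CPM, and the 4 with cilengitide between 5.60 and 10.2 CPM.

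A gene was called when edgeR's quasi-likelihood test gave a Benjamini-Hochberg adjusted p under 0.05 over all genes of the table and the change was at least 2-fold. Cd207 fell in Col5a1CKO against WT wounds with vehicle (log2 fold change -6.31, standard error, SE, 0.34, adjusted p = 0.000287). It was the 1 of 8 genes called, where 13.4% of all 15434 genes tested were called lower and 17.5% higher. It rose with cilengitide against vehicle in Col5a1CKO wounds (log2 fold change 4.67, SE 0.34, adjusted p = 0.00139), where 6.48% of all genes were called higher and 6.59% lower. With cilengitide it was lower than in WT wounds with vehicle (-1.61, SE 0.25, adjusted p = 0.0193), where 3.43% of all genes were called lower and 5.15% higher. This last call was lost without cilengitide replicate 2, 3 or 4, with adjusted p of 0.0517, 0.0556 and 0.0540 from edgeR, at log2 fold changes of -1.62, -1.49 and -1.53.

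The 7 other genes gave no call in these comparisons. Between Col5a1CKO and WT wounds with vehicle their log2 fold changes ran from -0.23 (H2-DMa, SE 0.39, adjusted p = 0.653 from edgeR) to 0.49 (H2-DMb1, SE 0.32, adjusted p = 0.236). The invariant chain Cd74 had 762, 526, 650.5 and 435 CPM in WT and 454, 1054, 469 and 457 CPM in Col5a1CKO wounds, a log2 fold change of 0.03 (SE 0.36). Replicate 2 of the Col5a1CKO wounds stood above the rest, and the other 3 lay within the WT range.

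The beta chain H2-Ab1 had 306, 226, 291 and 182 CPM in WT wounds with vehicle, 198, 513, 290.3 and 280.2 in Col5a1CKO wounds with vehicle, and 226, 252, 221 and 204 with cilengitide. The 3 groups overlapped. Without replicate 2 of the Col5a1CKO wounds, the one with neither Xist nor Y chromosome RNA, the log2 fold changes of the 7 genes against WT ran from -0.74 (H2-DMa, adjusted p = 0.0449 from edgeR, under 2-fold) to 0.13 (H2-DMb1, adjusted p = 0.665). With cilengitide against vehicle, all 8 wounds included, they ran from -0.54 (H2-DMb1, adjusted p = 0.196) to -0.09 (H2-DMa, adjusted p = 0.868), and none was called.

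Markers of other cells moved in the same wounds. The summed level of 5 keratinocyte markers (Krt5, Krt14, Krt1, Krt10 and Trp63) was 58664 to 96115 CPM in WT with vehicle, 57.6 to 11109 in Col5a1CKO with vehicle and 31566 to 66218 with cilengitide. Between Col5a1CKO and WT wounds with vehicle, 3 of the 5 were called lower and 0 higher, none of the 5 was at 0 reads in any wound, and the median log2 fold change was -3.65. The 4 markers of all leukocytes (Ptprc, which is CD45, Itgb2, Laptm5 and Coro1a) summed to 129.6 to 280 CPM in WT with vehicle and 1113 to 3211 in Col5a1CKO with vehicle, and each of them was called higher, with none at 0 reads.

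A list of 6 other genes tied to Langerhans cells held Epcam, Ly75, Mfge8, Cd24a, Csf1r and Il34, a cytokine that keratinocytes make and that acts on Langerhans cells through Csf1r. Epcam and Il34 were called lower and Ly75 and Csf1r higher in Col5a1CKO than in WT wounds with vehicle, where 13.4% of all genes were called lower and 17.5% higher. Epcam, an adhesion protein of Langerhans cells and also of epithelial cells, was 176 to 251 CPM in WT with vehicle, 0.911 to 12.2 in Col5a1CKO with vehicle and 74.4 to 121 with cilengitide. Its log2 fold changes were -5.45 (SE 0.82, adjusted p = 0.00191 from edgeR) between the genotypes and 4.17 (SE 0.78, adjusted p = 0.0115) with cilengitide. With cilengitide against vehicle, Epcam was the 1 of the 6 called higher and 2 were called lower, where 6.48% of all genes were called higher and 6.59% lower. The median log2 fold change of the 6 was -0.004. Over the 6 genes the summed level was 800.2 to 1196 CPM in WT with vehicle, 847 to 1827 in Col5a1CKO with vehicle and 1044 to 1134 with cilengitide, and none was at 0 reads. The part of these cell types in the values of Cd207 was not tested.

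Cd207 was set against the basal keratin Krt14 of the same wound, as the ratio of reads plus 1. The ratio ran from 0.00122 to 0.00398 in WT with vehicle, from 3.57e-05 to 0.0115 in Col5a1CKO with vehicle and from 0.000342 to 0.000574 with cilengitide. The Col5a1CKO wounds with vehicle spanned both other groups. The mean log2 ratio differed by -1.61 between Col5a1CKO and WT with vehicle (2-sided exact permutation p = 0.514, adjusted over 27 ratio tests p = 0.585). Without Col5a1CKO replicate 4 this difference was -0.13, and without replicate 2 it was -2.91. It was -0.76 between cilengitide and vehicle in Col5a1CKO wounds (exact p = 0.657, adjusted p = 0.71), where Cd207 itself rose, or 0.54 without replicate 2 and -2.23 without replicate 4 of the vehicle group. It was -2.36 between cilengitide and WT (exact p = 0.0286, the smallest that 4 against 4 wounds allow, adjusted p = 0.0771).

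Against H2-Ab1 of the same wound the ratio of Cd207 was 0.0694 to 0.119 in WT with vehicle, 0.000619 to 0.00216 in Col5a1CKO with vehicle and 0.0254 to 0.0451 with cilengitide. None of the 3 groups overlapped. The mean log2 ratio was 6.54 lower in Col5a1CKO than in WT with vehicle (difference -6.54) and 5.05 higher with cilengitide than without, each at the smallest exact permutation p of 0.0286 and an adjusted p of 0.0771. For the ratio of H2-Ab1 to the leukocyte gene Ptprc, WT wounds with vehicle held 4.16 to 7.40, Col5a1CKO with vehicle 0.291 to 1.92 and cilengitide 0.871 to 2.43. The mean log2 ratio differed by -3.40 between Col5a1CKO and WT with vehicle (exact p = 0.0286, adjusted p = 0.0771), without overlap, and by 1.75 between cilengitide and vehicle (exact p = 0.0857, adjusted p = 0.208), with overlap.

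**Figure D2:**
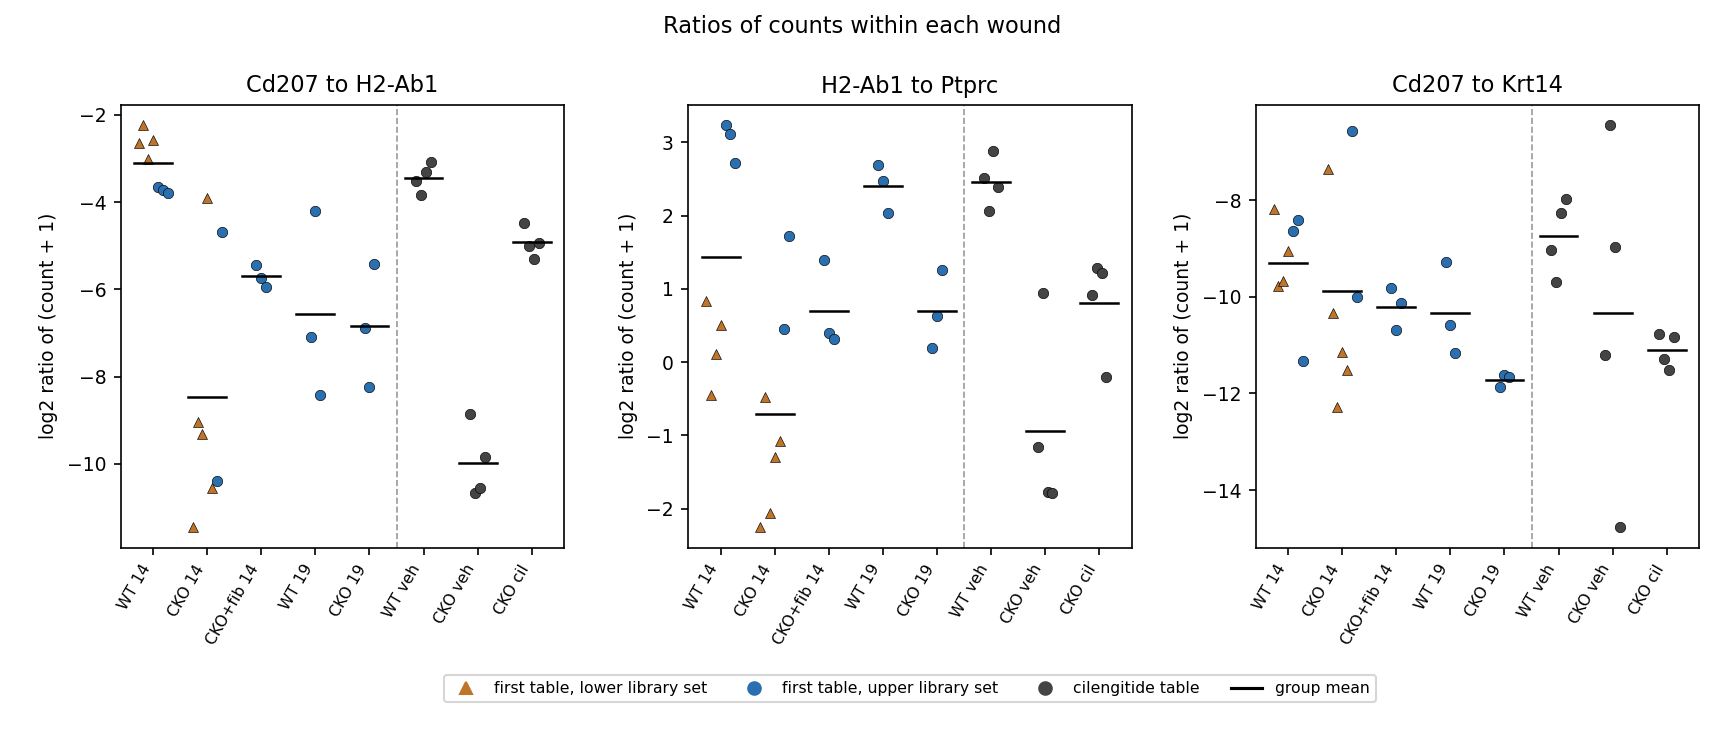
Log2 ratios of reads plus 1 within each wound (vertical axes) for Cd207 to H2-Ab1, H2-Ab1 to Ptprc and Cd207 to Krt14, by group, where fib stands for fibroblasts, veh for vehicle, cil for cilengitide, numbers for days and bars for group means. The ratio of Cd207 to H2-Ab1 in CKO with vehicle, 0.000619 to 0.00216, lies below the 2 other groups of its table.

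At day 14 outside the cilengitide experiment, Cd207 was 13.9, 23.9 and 37.8 CPM (lowest, median and highest of 7) in WT wounds and 0, 0.311 and 18.1 CPM in Col5a1CKO wounds. Of the 7 Col5a1CKO wounds, 6 lay below every WT wound, and replicate g lay within the WT range. Replicates a and e had 0 reads, which allows up to 0.172 and 0.15 CPM at 3 reads. The log2 fold change was -2.69 (SE 1.18, adjusted p = 0.158 from edgeR), which did not pass the test.

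Without replicate g the log2 fold change of Cd207 was -4.35 and it was called (adjusted p = 0.0225 from edgeR). Within the lower library set it was -4.03 (adjusted p = 0.122) and within the upper set -1.44 (adjusted p = 0.498). The keratinocyte markers summed to 26124 and 56887.5 CPM in Col5a1CKO replicates d and g, where Cd207 was 6.08 and 18.1 CPM, to 31.4 to 1824 CPM in the other 5 Col5a1CKO wounds, and to 30119 to 152062 CPM in the WT wounds. All 8 genes were tested at day 14 and 0 were called, where 2.71% of 14367 genes were called lower and 5.57% higher. With library sizes alone in place of TMM, 1018 genes were called higher and 246 lower, against 800 and 390, and 0 of the 8 were called. By DESeq2 0 of the 8 were called as well, with Cd207 at an adjusted p of 0.0565.

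At day 14, H2-Ab1, H2-DMa and Cd74 stood apart between the library sets within WT wounds. Cd74 was 194, 239 and 1026 CPM in WT and 180, 330 and 1032 CPM in Col5a1CKO wounds (lowest, median and highest of 7), with a log2 fold change of 0.13 (SE 0.53, adjusted p = 0.900 from edgeR). Among the WT wounds alone it was 194 to 239 CPM in the 4 of the lower set and 411 to 1026 in the 3 of the upper set. H2-DMa, the alpha chain of the loading factor, was 1.86 to 4.36 CPM in the former and 14.5 to 32.5 in the latter. H2-Ab1 was 78.3 to 171 and 193 to 478 CPM, likewise without overlap, whereas H2-Aa, H2-Eb1, H2-DMb1, Ciita and Cd207 overlapped.

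Between the genotypes at day 14 the log2 fold changes of the 7 genes other than Cd207 ran from -0.22 (H2-Aa, SE 0.27) to 0.33 (H2-DMa, SE 0.66). With the library set as a covariate, H2-DMa was called higher in Col5a1CKO wounds (1.13, adjusted p = 0.0362 from edgeR), with 1.59 (adjusted p = 0.0884) within the lower set and 0.31 (adjusted p = 0.544) within the upper set. The coactivator Ciita was 0, 8.49 and 17.0 CPM in WT and 3.10, 8.55 and 17.9 CPM in Col5a1CKO wounds, with a log2 fold change of 0.20 (SE 0.74). WT replicate c had 0 reads of Ciita, which allows up to 0.218 CPM.

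**Figure D3:**
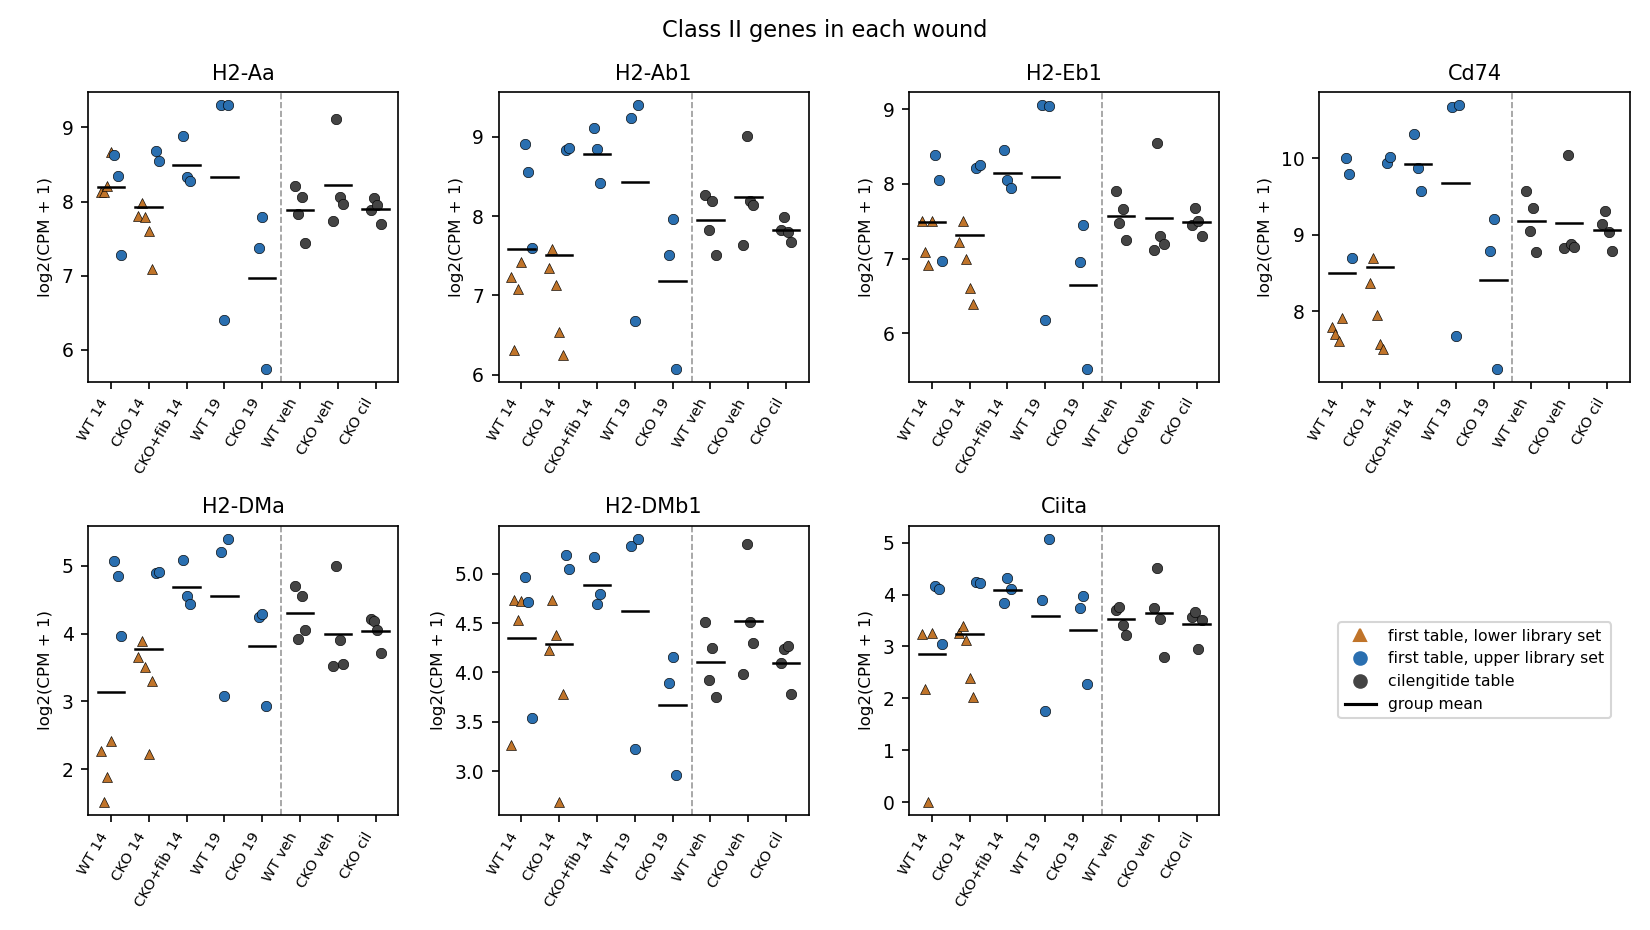
The 7 genes other than Cd207 in each wound as log2(CPM + 1) (vertical axes, which differ in range), by group as in the plot of ratios, with bars for group means. Cd74 in WT wounds of day 14 lies at 194 to 239 CPM in the lower library set (triangles) and at 411 to 1026 CPM in the upper set (circles).

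The ratio of Cd207 to H2-Ab1 was the ratio that passed its test at day 14. It was 0.0721, 0.123 and 0.212 in WT wounds and 0.000357, 0.00157 and 0.0665 in Col5a1CKO wounds (lowest, median and highest of 7), without overlap. The mean log2 ratio differed by -5.38 (exact permutation p = 0.000583, adjusted p = 0.0157), and did not pass after adjustment when any 1 of the 7 WT wounds was left out (adjusted p = 0.0750, exact permutation). Within the lower set the difference was -6.23 (exact p = 0.0159) and within the upper set -3.80 (exact p = 0.100, the smallest that 3 against 2 wounds allow). The ratio of H2-Ab1 to Ptprc was 0.735 to 9.41 in the WT group and 0.210 to 3.30 in the mutant group, a difference of -2.15 in the mean log2 ratio (exact p = 0.0204, adjusted p = 0.0771), with -1.69 in the lower and -1.93 in the upper set. For Cd207 to Krt14 the difference at day 14 was -0.59 (exact permutation p = 0.520, adjusted p = 0.585), with -1.35 in the lower and 1.17 in the upper set. Mutant replicates a and f, with 0 and 10 reads of Cd207, had ratios of 0.00610 and 0.0105, above the WT wounds (0.000388 to 0.00345). The other mutant wounds ran from 0.000200 to 0.000981. At 0 reads of Cd207, as in replicates a and e, the ratio rests on the added 1.

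At day 19, Cd207 was 4.35, 5.45 and 1.92 CPM in WT and 1.48, 0.780 and 1.5 CPM in Col5a1CKO wounds. The groups did not overlap. The log2 fold change was -1.56 (SE 0.48, adjusted p = 0.15 from edgeR), which was not called, and DESeq2 called it (-1.57, adjusted p = 0.0285). Xist was found in the 3 Col5a1CKO wounds and in 2 WT wounds of day 19, and Y chromosome RNA in 1 WT wound. Sex was thus not balanced between the genotypes at day 19.

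H2-Eb1 was 531, 71.6 and 526 CPM in WT and 123, 174 and 45.1 CPM in Col5a1CKO wounds of day 19, and Cd74 was 1621, 202 and 1655 against 441, 587 and 151 CPM. WT replicate b and Col5a1CKO replicate c were the lowest of their groups for both genes, and the groups overlapped through WT replicate b. These 2 wounds also had the lowest leukocyte marker sums of their groups, with 98.3 and 174 CPM against 652.7 to 849 in the other 4, and the part of leukocytes in the class II values was not tested. The fitted change was below 0 for each of the 8 genes, from -1.69 (H2-Eb1, SE 0.87, adjusted p = 0.275) to -0.64 (Ciita, SE 0.96, adjusted p = 0.692 from edgeR).

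The median log2 fold change of the 8 genes at day 19 was -1.48, and that of all 15135 genes tested was -0.01. None of the 8 was called, where 0% of all genes were called lower and 0.0198% higher by edgeR, against 943 lower and 815 higher at an unadjusted p under 0.05, and 782 lower and 708 higher by DESeq2. Without WT replicate b the fold changes of the class II genes and Ciita ran from -2.19 (H2-Eb1, adjusted p = 0.169 from edgeR) to -1.16 (Ciita, adjusted p = 0.365), and without Col5a1CKO replicate c from -1.29 (H2-Eb1) to -0.24 (Ciita). The ratio of H2-Ab1 to Ptprc at day 19 was 4.09 to 6.46 in the WT group and 1.15 to 2.40 in the mutant group, a difference of -1.70 in the mean log2 ratio without overlap, at the smallest exact permutation p of 0.100 (adjusted p = 0.208). For Cd207 to H2-Ab1 the ratio was 0.00292 to 0.0541 in the WT group and 0.00331 to 0.0233 in the mutant group. Its mean log2 ratio differed by -0.27, with overlap, which did not pass. The difference for Cd207 to Krt14 was -1.38, without overlap (exact permutation p = 0.100, adjusted p = 0.208).

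The genotype difference was also compared between the days in a single edgeR fit of 15954 genes, with no term for sex. The difference of log2 fold changes, day 19 minus day 14, ran from -1.68 (Cd74, SE 1.03) to -0.88 (Ciita, SE 1.33) for the 7 class II genes and was 1.09 (SE 1.85) for Cd207. None passed, with adjusted p of 0.856 (H2-Eb1) or more. Over all genes 0 passed by edgeR, 938 had an unadjusted p under 0.05, and DESeq2 called 45 of 19533, none of them among the 8.

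Between the days, Cd207 fell in WT wounds, from 13.9 to 37.8 CPM at day 14 to 1.92 to 5.45 CPM at day 19, without overlap (log2 fold change -2.57, SE 0.48, adjusted p = 0.0119 from edgeR). Here 4.25% of 15180 genes were called lower and 1.5% higher. With library sizes alone in place of TMM, 293 genes were called lower and 719 higher, against 645 and 227, and Cd207 was still called lower (-2.09, adjusted p = 0.0331). The wounds of day 19 were all in the upper library set, and within that set the log2 fold change was -2.65 (adjusted p = 0.0141). In that set Y chromosome RNA was found in the 3 WT wounds of day 14 and in 1 of day 19, and Xist in the 2 others of day 19. Sex was thus not balanced between the days there. Cd207 was not called without WT replicate a (-2.59, adjusted p = 0.0880) or c (-2.20, adjusted p = 0.0835) of day 19.

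The 5 keratinocyte markers summed to 30119 to 152062 CPM in WT wounds of day 14 and to 13938 to 24452 CPM at day 19, without overlap, and 0 of the 5 were called. The mean log2 ratio of Cd207 to Krt14 differed by -1.04 between these days (exact permutation p = 0.200, adjusted p = 0.296), with overlap. The part of keratinocytes in the fall of Cd207 was not tested.

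The 7 other genes had positive log2 fold changes between the days in WT wounds, from 0.52 (H2-DMb1, SE 0.52) to 1.48 (Cd74, SE 0.66, adjusted p = 0.205 from edgeR), and none was called. Within the upper library set they ran from 0.34 (H2-DMa) to 0.81 (H2-Eb1), with 0.76 for Cd74. Among WT wounds of day 19, replicates a and c had 531 and 526 CPM of H2-Eb1, above the 7 wounds of day 14 (120 to 335 CPM), and replicate b had 71.6 CPM, below them. Without replicate b, H2-Eb1 was called higher at day 19. In Col5a1CKO wounds none of the 8 genes was called between the days, where 3.85% of 15327 genes were called lower and 1.87% higher, and Cd207 had a log2 fold change of -1.52 (SE 1.90), or 0.13 without replicate g of day 14.

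In the 3 Col5a1CKO wounds with fibroblasts, Cd207 was 12.6, 8.59 and 5.53 CPM. These values lay below the 7 WT wounds of day 14 and within the range of the Col5a1CKO wounds without fibroblasts. Against those, the log2 fold change of Cd207 was 1.31 (SE 1.66, adjusted p = 0.725 from edgeR), and against the 2 wounds of the upper library set alone it was 0.04. These 2 wounds were far apart, with 0.311 CPM in replicate f and 18.1 CPM in g. Replicates a, b, c and e had 0 to 0.328 CPM and d had 6.08 CPM. The medians were 8.59 CPM with and 0.311 CPM without fibroblasts. None of the 8 genes was called with fibroblasts against without, where 0% of 15659 genes were called higher and 0% lower, against 37 higher and 854 lower at an unadjusted p under 0.05, and 9 higher and 10 lower by DESeq2.

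The class II genes in wounds with fibroblasts lay near their levels in Col5a1CKO replicates f and g of the same day. These were the Col5a1CKO wounds of that day without fibroblasts in the upper library set, to which the fibroblast libraries also belong. Cd74 was 1273, 939.9 and 758 CPM with fibroblasts, and 982 and 1032 CPM in replicates f and g. In the WT wounds of that day and set it ranged from 411 to 1026 CPM. The part of the library set in these levels was not tested. H2-Ab1 was 551, 457 and 341 CPM with fibroblasts, and 457 and 464 CPM in replicates f and g. Within the upper set the log2 fold changes of the class II genes and Ciita ran from -0.16 (H2-DMb1) to 0.04 (Cd74), and over all wounds from 0.43 (H2-DMb1, SE 0.45) to 1.03 (Cd74, SE 0.56).

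Against WT wounds of day 14, Cd207 in wounds with fibroblasts had a log2 fold change of -1.27 (SE 0.42, adjusted p = 0.0991 from edgeR), without overlap. It was called within the upper library set (-1.43, adjusted p = 0.0324), where the WT and fibroblast wounds also differed by sex, and by DESeq2 (adjusted p = 0.00715). The 7 other genes ran from 0.40 (H2-Aa, SE 0.30) to 1.27 (Cd74, SE 0.54), and none was called. Within the upper set they ran from 0.17 (H2-DMa) to 0.55 (H2-DMb1), with 0.51 for Cd74. Of all 15317 genes, 2.06% were called lower and 3.77% higher. The ratio of Cd207 to H2-Ab1 was 0.0163 to 0.0230 with fibroblasts, below each WT wound of day 14, with a difference of -2.61 in the mean log2 ratio (exact permutation p = 0.00833, which is the least possible with 3 and 7 wounds, adjusted p = 0.0750). The comparisons of day 14 share the WT or the Col5a1CKO wounds.

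**Figure D4:**
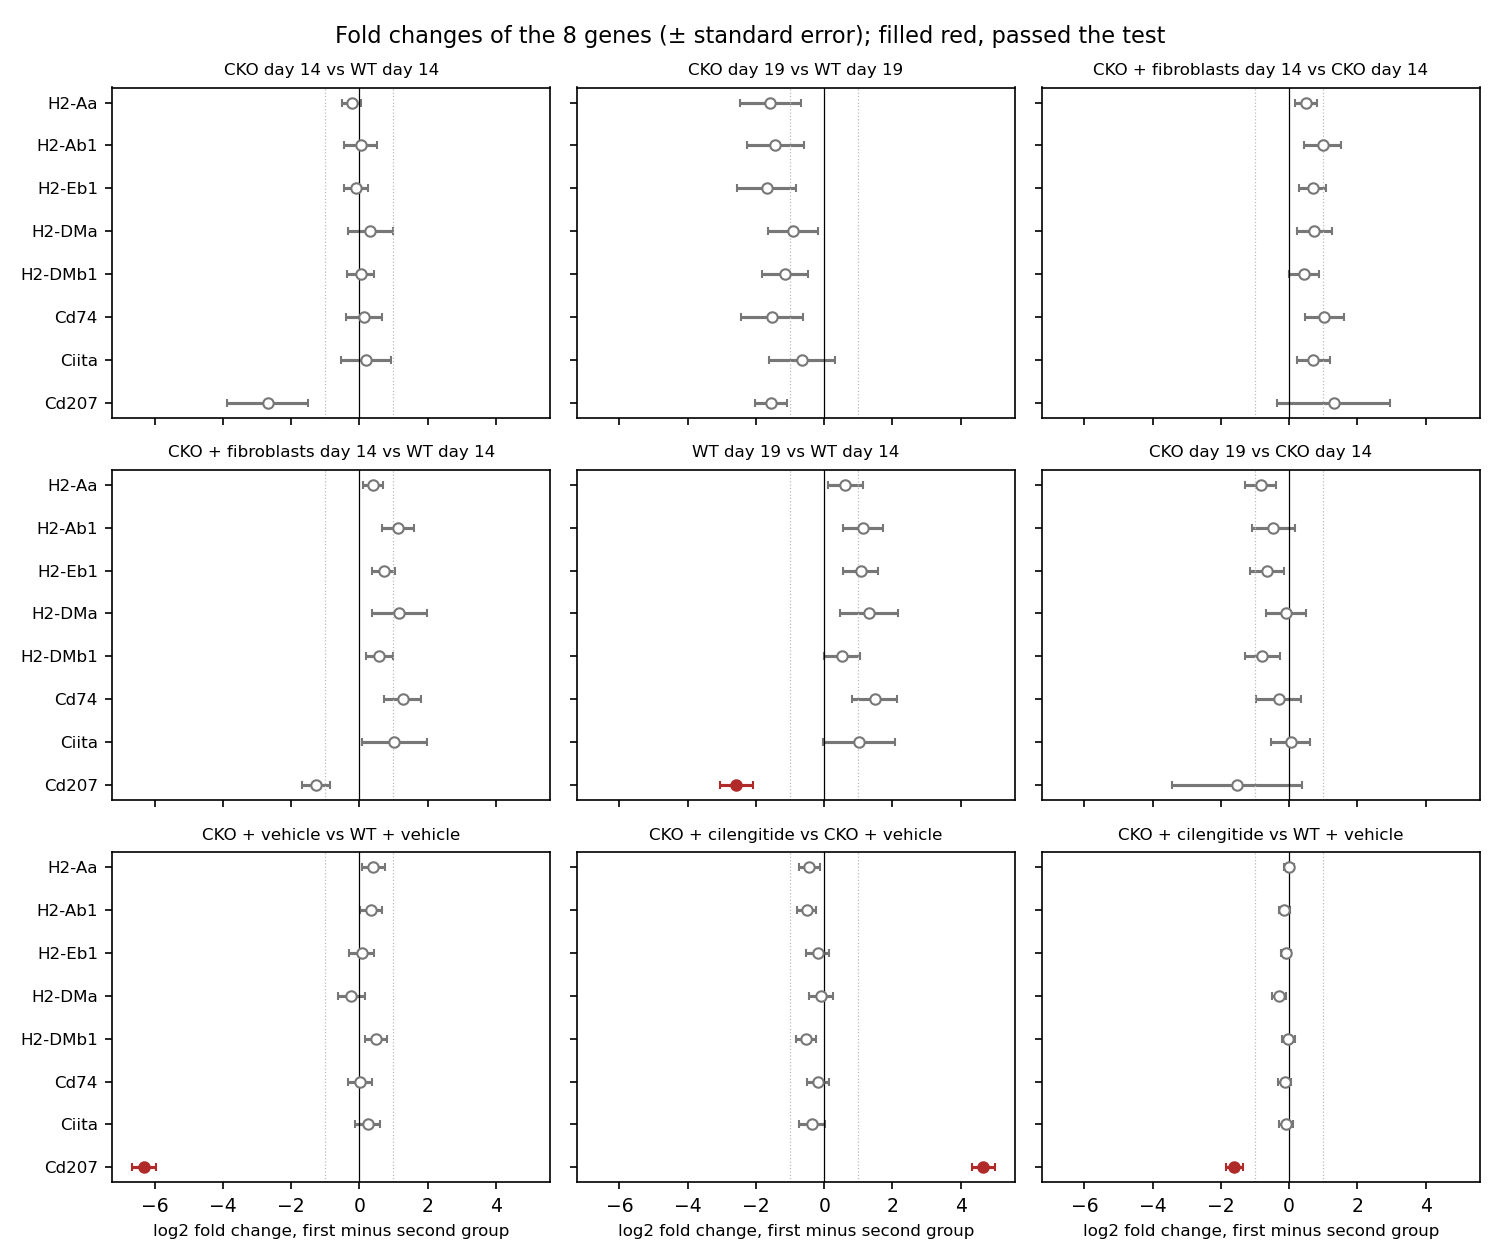
Log2 fold changes (horizontal axes) with SEs from edgeR for the 8 genes in the 9 comparisons, where CKO stands for Col5a1CKO. Filled red points passed the test, open points did not, and dotted lines mark 2-fold. Cd207 passed in 4 comparisons, at -2.57, -6.31, 4.67 and -1.61, and no other gene passed in any of the 9.

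Among the other class II genes 1 was called in 1 comparison. Of H2-Oa and H2-Ob (the chains that restrain the loading factor), H2-DMb2 (a second beta chain of that factor), H2-Eb2 and H2-Ea-ps, the last had 0 reads in all 35 wounds. The other 4 were tested, and of these H2-DMb2 was called lower in Col5a1CKO than in WT wounds with vehicle (3.80 to 4.79 CPM in WT, 1.21 to 2.08 in Col5a1CKO, log2 fold change -1.26, SE 0.24, adjusted p = 0.00437 from edgeR), without overlap. H2-DMb2 and H2-DMb1 are close copies, and reads shared between them may be split uncertainly. No other of these 4 genes was called in any of the 9 comparisons.

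Of a list for class II loading and turnover, 3 of the 5 genes tested were called higher in Col5a1CKO than in WT wounds with vehicle and 0 lower, against 17.5% and 13.4% of all genes. They were Ctss, the protease that trims the invariant chain (log2 fold change 3.04, SE 0.47), Ctsl (1.74, SE 0.30) and Lgmn (1.99, SE 0.44), with adjusted p of 0.00206, 0.00304 and 0.00780 from edgeR. Ifi30, a reductase of endosomes, and Cd83 were not called, and March1 was not tested. With cilengitide against vehicle, Ctss and Ctsl were called lower (-1.54 and -1.07). None of 7 genes for the factors that bind the X and Y boxes (Rfx5, Rfxap, Rfxank, Nfya, Nfyb, Nfyc and Creb1) was called in any of the 9 comparisons.

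Of 11 tested genes of the interferon gamma pathway, a known inducer of Ciita, 7 were called higher in Col5a1CKO than in WT wounds with vehicle and 0 lower, against 17.5% and 13.4% of all genes. Among them were Gbp2 (log2 fold change 2.44, SE 0.30, adjusted p = 0.00102 from edgeR), Irf1 (2.10, SE 0.27, adjusted p = 0.00114) and Jak2 (2.27, SE 0.31, adjusted p = 0.00135). With cilengitide against vehicle, 5 of the 11 were called lower, against 6.59% of all genes, Gbp2 (-1.74) and Irf1 (-1.40) among them. In the same comparisons Ciita had log2 fold changes of 0.24 (SE 0.38) and -0.36 (SE 0.37) and was not called.

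The 5 genes of costimulation and migration (Cd40, Cd80, Cd86, Ccr7 and Icam1), which antigen presenting cells raise on activation, were all called higher in Col5a1CKO than in WT wounds with vehicle, where 17.5% of all genes were. Cd86 had 2.89 (SE 0.35, adjusted p = 0.00102 from edgeR) and Cd80 4.36 (SE 0.67, adjusted p = 0.00209), and 4 of the 5 were called lower with cilengitide against vehicle. Of 9 genes of class I presentation, Nlrc5, the class I counterpart of Ciita, was called lower in Col5a1CKO wounds with vehicle (-1.18, SE 0.28, adjusted p = 0.00997) and none was called higher. Of 9 tested dendritic cell markers, Itgax (1.99, SE 0.31) and Zbtb46 (1.51, SE 0.52) were called higher and 0 lower, against the same 17.5% and 13.4% of all genes.

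The genes whose levels went most with H2-Ab1 from wound to wound included 4 other class II genes among the first 5. After removal of group means, the smaller of the Pearson correlations of log2(CPM + 1) over the 23 wounds of the first table and over the 12 of the second was taken, among 13788 genes. H2-Eb1 came first (0.94 and 0.93), then Cd74 (0.98 and 0.92), H2-DMa (0.90 and 0.91), Mir5107 (0.83 and 0.91), whose gene overlaps that of Cd74 in RefSeq, and H2-Aa (0.81 and 0.97). H2-DMb1 ranked 8 (0.74 and 0.96), Ciita ranked 119 (0.81 and 0.53) and Cd207 ranked 1363 (0.22 and 0.22). These wounds share library sets, depth and cell makeup, and no test was made.

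The genes most like Ciita by this measure were Sh2d2a (0.80 and 0.88), Apol7c (0.78 and 0.88), Flt3 (0.77 and 0.75), a receptor of dendritic cells and their precursors, Foxp3 (0.79 and 0.75), the factor of regulatory T cells, and Tbc1d9b (0.75 and 0.74). Beside Ciita, H2-Eb1 ranked 13, Cd74 14, H2-Aa 66, H2-DMa 70, H2-Ab1 250 and H2-DMb1 312. The genes most like Cd207 were 2300005B03Rik (0.79 and 0.78), Slurp1 (0.93 and 0.77), which keratinocytes secrete, Bcl11b (0.76 and 0.83), Lancl1 (0.78 and 0.75) and Clca2 (0.84 and 0.75). Among the other 7 genes, H2-Ab1 was the most like Cd207, at rank 1927.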

How the data were processed

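The authors deposited raw counts. Their methods name Hisat2 for alignment to NCBI37/mm9 and SeqMonk for counts over RefSeq exons, and do not say so for the cilengitide libraries. In the first table the row with most counts was kept per symbol. Rows without a symbol held at most 0.0694% of a library.

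Counts were tested within each pair of groups with edgeR 4.0.16 in R 4.3.3 (TMM, robust quasi-likelihood test, genes kept by filterByExpr at 10 counts). Standard errors are the log2 fold change over the root of F. CPM and RPKM were computed from the counts. Ratios were compared in Python 3.11.15. The fits were tested on simulated data. Alternatives were DESeq2 1.42.0, other normalizations, filters, folds and rows, all groups in one fit, the library set, the replicate letter as a block and leaving out each library. The genes and lists were chosen with earlier results of these data known. Of lists, up to 4 genes with the smallest adjusted p are named. Intervals for 0 reads cover counting error only.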

Additional observations from a re-analysis of the deposited data

Results flagged for a closer look

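Single wounds stood apart within groups of 4 to 7, by Dixon's test at 95%, for 5 of 40 combinations of gene and group, where chance gives about 1 in 20. The combinations are not independent, since class II genes went together from wound to wound. All flags other than that of Cd207 fell on 1 wound. Cd207 was 18.1 CPM in Col5a1CKO replicate g of day 14, against 6.08 CPM in the next highest of the 7 wounds. In replicate 2 of Col5a1CKO with vehicle, Cd74 was 1054 CPM against 469 in the next highest wound, H2-Aa 555 against 266, H2-DMa 31.0 against 14.0 and H2-Eb1 373 against 157. In that wound Cd207 was 0.304 CPM and lay within its group, and keratinocyte markers summed to 57.6 CPM, the lowest of the 4.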

How the results depend on the processing

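Of 1256 recomputed fold changes, 1229 kept their side of the thresholds, 6 lost a call, 21 gained one and no call turned its direction. Another 71 uncalled ones, counted among the 1229, changed sign. The count of the 8 genes called moved from 0 to 1 at day 14 without replicate g of Col5a1CKO (0 to 1 over all left-out libraries), with the library set as a covariate (1) and with the replicate block (1, Cd207, -5.71, adjusted p = 0.0491 by edgeR). It moved from 0 to 1 by DESeq2 at day 19 and for fibroblasts against WT, where the upper library set alone also gave 1. For WT days it moved from 1 to 0 with all groups in one fit and to 0 and 2 at the extremes of leaving out a library, and for cilengitide against WT with vehicle to 0 (range 0 to 1). With the replicate block on letters a to c the fibroblast wounds gave 4 calls against Col5a1CKO (H2-Ab1, H2-DMa, Cd74 and Cd207) and 3 against WT (H2-Ab1, H2-DMa and Cd74), and the same libraries without the block, an alternative chosen after seeing the data, also gave 4 and 3. These letters fall in different library sets in the groups compared. Whether letters pair the wounds is not given in the sources used here. Same-letter deviations from the group means correlated at -0.46 to 0.57 at day 14, which cannot show whether a letter marks littermates. The block changed no call at day 19. Of 297 recomputed ratio results, 9 lost their call, all for Cd207 to H2-Ab1 at day 14: -6.23 within the lower set, -3.80 within the upper, and the range without 1 library was -6.14 to -4.88. Within either set the wounds were too few for the exact test to pass after adjustment. Another 11 uncalled ratio differences changed sign. Apart from that limit of size, the cause of these changes was not tested. Wounds with under 30 reads of Cd207 limit the precision of its lowest values.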

Other observations

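Markers of other cells that can carry class II molecules were counted in the same fits. Of 10 macrophage markers, 8 were called higher in Col5a1CKO than in WT wounds with vehicle, 2 at day 14 outside the cilengitide experiment and 3 with fibroblasts against WT, and 2 were called lower with cilengitide against vehicle. Over all genes the shares called were 17.5%, 5.57% and 3.77% higher and 6.59% lower in these comparisons. Of the B cell markers, 1 of 4 tested was called higher in Col5a1CKO wounds with vehicle and none was called in the other 8 comparisons. Of 6 T cell markers, 1 was called higher and 1 lower in that comparison. Of 5 tested neutrophil markers 4 were called higher there, of 5 fibroblast markers 2, of 3 endothelial markers 1 and of 4 skeletal muscle markers 0. At day 14 outside the cilengitide experiment, all 3 endothelial markers were called higher in Col5a1CKO than in WT wounds.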
